A study of Mus musculus with 9 samples.

Results

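The wild-type hindbrain of the mouse on embryonic day 9.5 was described here from 3 RNA sequencing libraries of the 9 in the study. These 3 libraries were chosen by genotype alone: the labels call them wt littermate, with full length Zfp423 protein, strain C57BL/6N, tissue hindbrain and no treatment. The other 6 libraries carried either of 2 deletions in Zfp423, the d9-20 allele (exon 4, zinc fingers 9 to 20) or the d28-30 allele (exons 6 and 7, zinc fingers 28 to 30), and none of their values entered this description. The labels do not say which line the littermates came from, or whether a library was made from 1 embryo or from a pool. The 3 libraries are therefore called replicates, and their spread may be partly technical. In whole tissue, fewer cells of a type and less RNA per cell cannot be told apart, and this holds for every level given below.

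At this age the hindbrain is a short stretch of neural tube that is divided along its length into segments, the rhombomeres, each with its own combination of Hox genes and other transcription factors. The boundary with the midbrain, where Otx2-expressing and Gbx2-expressing cells meet, secretes FGF8 and WNT1, while retinoic acid made in neighbouring mesoderm patterns the caudal end. Across the wall of the tube, BMP and WNT signals from the roof plate and Sonic hedgehog from the floor plate set up bands of progenitors. Most cells are still dividing, the first neurons are leaving the cycle, and the choroid plexus and the cerebellum that arise from the dorsal hindbrain have not yet formed.

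The libraries held 21657749, 20078338 and 19217956 counts for replicates 1, 2 and 3. A level is given as CPM, the counts of a gene per 1000000 counts of its library, and 3 counts, taken as the floor of detection, correspond to 0.139, 0.149 and 0.156 CPM. Of 48587 genes in the table, 25435 had a count in a wild-type library. A gene was called expressed when it reached 1 CPM in every replicate, which 13471 genes did, or 27.7% of the table. Among protein-coding genes the share was 57.9% (12305 of 21237), and among long intergenic non-coding RNA genes 158 of 3356 were expressed. The median level of an expressed gene was 32.2 CPM, 2422 genes reached 100 CPM and 54 reached 1000 CPM in every replicate. No gene dominated the libraries: the 1258 highest genes together made up 50% of the counts, and the 20 highest held 5.71%, 5.58% and 5.50% of them.

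The replicates differed by more than counting error and were kept as separate samples (chi-square per degree of freedom 6.67, 15.1 and 14.9 for the pairs 1 and 2, 1 and 3, and 2 and 3). The spread beyond counting error, the square root of the common dispersion, was 0.0928. Among 9848 genes with a mean of at least 10 CPM the median SD of log2 CPM was 0.099, and it was above 0.5 for 40 genes. Replicate 2 stood apart in its sex-linked RNA. Xist, transcribed from the inactive X of female cells (X:103460366-103483254), was at 3.46, 724 and 0.208 CPM. Replicate 2 also held RNA of the Y-linked genes, with Kdm5d at 72.5, 23.2 and 70.8 CPM and Uty at 34.0, 8.62 and 22.3 CPM, so that it contained RNA of both female and male cells. All 4 Y-linked genes listed (Kdm5d, Uty, Eif2s3y and Ddx3y) were lowest in that library and present in each of the 3. Without replicate 2, 13656 genes met the minimum, and results that rest on it are given library by library.

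The 20 genes with the highest CPM included genes of translation, glycolysis, the cytoskeleton and protein folding, and 2 embryonic globins. Eef1a1, which brings aminoacyl-tRNA to the ribosome, was the highest gene of the table by CPM at 5861, 5991 and 6151 CPM. It was followed by the chaperone Hsp90ab1 (4920, 5363 and 5258 CPM) and by Tubb5, a beta-tubulin of dividing cells (3383, 3382 and 3646 CPM). Translation was also represented among the 20 highest genes by Eef2, Eif4g2 and Rpl4, the nucleolus by Npm1 and Ncl, and glycolysis by Pkm (2779, 2999 and 3011 CPM) and Ldha (1685, 1994 and 1803 CPM). The ubiquitin ligase Nedd4 stood at 3083, 2957 and 2869 CPM, and the other members of the 20 were Actb, Hnrnpa2b1, Hspa8, the mitochondrially encoded mt-Co1, mt-Cytb and mt-Nd1, the imprinted gene Mest and the embryonic globins Hbb-y and Hbb-bh1. Genes of the mitochondrial genome took 1.42%, 1.20% and 0.904% of the counts, and genes of ribosomal proteins 3.66%, 3.89% and 4.14%.

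The 10 genes with the largest SD of log2 CPM at a mean of 10 CPM or more did not form 1 group. Besides Xist and the 4 Y-linked genes, they were Postn, which encodes an extracellular matrix protein of mesenchyme and was at 15.4, 49.6 and 14 CPM, the adult globin Hbb-bs, mt-Nd6 (75.9, 70.9 and 24.5 CPM), the non-coding Snhg14 (43.9, 47.4 and 18.1 CPM) and the gene model Gm17066. Postn was high in replicate 2 alone, while mt-Nd6, Snhg14 and Gm17066 (20.9, 22.2 and 9.83 CPM) were low in replicate 3 alone.

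Zfp423, the gene altered in the other libraries of the study, was well expressed in the wild type. It encodes a zinc finger protein that binds DNA and partners with EBF and SMAD proteins (8:87661810-87959595, minus strand, GRCm38). Its level was 102, 104 and 119 CPM, which ranked it 2370th in the table by mean CPM. To compare genes with one another, CPM was divided by the length of merged exon in kilobases (CPM per kb), and neighbours in such an order were called separate only where their ranges over the 3 replicates did not overlap. Per kb of exon, Zfp423 stood at 19.3 ± 1.68 CPM (SD, n = 3), above its close relative Zfp521 at 14.8 ± 0.529, and the ranges did not overlap. Their ratio was 1.31 ± 0.15. All 4 EBF genes, which encode transcription factors of early neurons and several mesodermal tissues, were expressed. Ebf3 (6.22 ± 1.08 CPM per kb) and Ebf2 (6.19 ± 0.884) overlapped, Ebf1 was lower (2.96 ± 0.581), and Ebf4 was the lowest (2.19 ± 0.322).

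The rostrocaudal extent of the tissue was read from genes whose expression is known to end at set positions. In this description a list is a set of genes grouped by region, pathway or cell type, and a list's count is its number of expressed members. Each such count is to be read beside the share of all genes (27.7%) and of protein-coding genes (57.9%) that were expressed. Hox genes, which are activated in their order along 4 chromosomal clusters and mark progressively more caudal levels, gave a sharp transition between paralog groups 3 and 4. The 8 genes of groups 1 to 3 held 5729 counts over the 3 libraries, and the 31 genes of groups 4 to 13 held 80. Of the 12 genes in groups 1 to 4, 6 were expressed (50%, beside 27.7% of all genes and 57.9% of protein-coding genes), while 0 of the 27 genes in groups 5 to 13 were.

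Hoxa2, the only Hox gene known to reach rhombomere 2 (the second segment), had the highest level per kb. It was at 24.3, 22.2 and 17.8 CPM (6:52162417-52164831, minus strand), or 12.1 ± 1.88 CPM per kb. Hoxb2 followed at 31.5, 31.8 and 30.4 CPM (11:96350525-96354012), or 8.95 ± 0.210 CPM per kb, and Hoxb1, which marks rhombomere 4, at 20.0, 18.7 and 18.5 CPM (11:96365752-96368256), or 8.20 ± 0.355 CPM per kb. These 3 genes were separate from one another, and Hoxb3 (2.48 ± 0.439 CPM per kb) and Hoxa3 (1.38 ± 0.175) followed in an order without overlap.

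Group 4 genes, whose rostral limit lies inside the caudal hindbrain between rhombomeres 6 and 7, were near the floor. Hoxb4 was at 0.231, 0.747 and 0.416 CPM, Hoxa4 had 2 counts and Hoxc4 1 count in the 3 libraries together, and Hoxd4 had 0 counts, which allows up to 0.139 to 0.156 CPM. For Hoxd4 and Hoxd3 (1.29, 1.34 and 0.781 CPM), 52.3% and 62.3% of the exon sequence overlaps another gene on the same strand, and how the counting treated such reads is not given in the sources used here. A further 52.9% of Hoxb3 exon lies opposite an antisense gene. Hoxd1 was the exception within the rostral groups, with 6 counts in all. In groups 5 to 13, 10 of the 16 genes in groups 9 to 13 and 3 of the 11 in groups 5 to 8 had 0 counts, and no gene exceeded 8 counts over the libraries (Hoxb5).

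The 7 Hox genes of groups 1 to 4 with a mean of at least 1 CPM were all lowest in replicate 3, where the same held for 33.3% of all genes at that mean. The median of their log2 ratios to the mean was 0.17, 0.03 and -0.21 in replicates 1, 2 and 3. Counts of groups 1 to 3 were 2194, 1892 and 1643, while those of groups 5 to 13 were 3, 28 and 18. The library with the lowest sum of rostral Hox genes thus was not the one with the fewest caudal ones. What differed between the libraries in their caudal end was not tested.

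**Figure D1:**
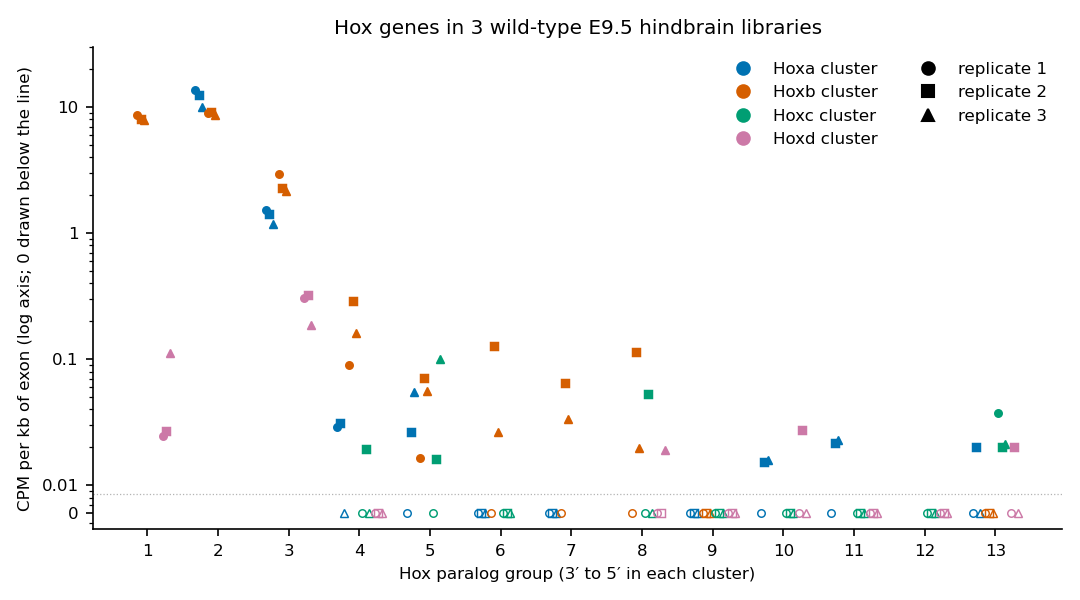
Level of Hox genes (CPM per kb of exon, log axis) by paralog group in the 3 wild-type libraries, coloured by cluster, with 0 drawn below the dotted line. Groups 1 to 3 hold genes up to 13.7 CPM per kb, and no gene of groups 4 to 13 reaches 0.3 CPM per kb.

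Other genes of the tail end were likewise scarce. Of 8 genes of the caudal tail bud, 2 were expressed (25%, beside 57.9% of protein-coding genes). They were Fgf17, which is also a gene of the midbrain-hindbrain boundary, and the mesodermal factor T (1.34, 2.64 and 1.14 CPM). Cdx2, Cdx4 and Msgn1, which mark the growing tail, had 0 counts.

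At the rostral end, the genes of the midbrain-hindbrain boundary were all present. Each of the 17 listed was expressed, with a median of 25.0 CPM (beside 4.93 CPM over all protein-coding genes). En2, a homeobox gene of the boundary and later cerebellum, was at 76.3, 97.5 and 103 CPM (5:28165694-28172166), and its partner En1 at 20.9, 36.9 and 28.1 CPM. Per kb, En2 stood 2.47 ± 0.437 times as high as En1. Among the ligands, Fgf15 (19.5 ± 1.15 CPM per kb) was separate from Fgf17 (10.2 ± 2.01), and Fgf17 from Fgf8 (5.48 ± 0.824), the ligand that organises the region, whose own level was 6.19, 7.62 and 8.38 CPM. Fgf8 and Fgf18 (4.77 ± 0.675 CPM per kb) overlapped. Wnt1, which maintains En expression, was at 20.3, 27.4 and 27.1 CPM.

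Genes known to respond to FGF were part of this list. Dusp6, a phosphatase that dampens the ERK kinase, stood at 65.0, 70.6 and 61.7 CPM, and the feedback inhibitors Spry2 and Spry1 at 15.2 ± 1.63 and 11.9 ± 1.47 CPM per kb. Spry4 was lower (1.73 ± 0.129), as was Etv4 (4.22 ± 0.522) beside the related factor Etv5 (12.1 ± 0.203). Pax5 and Pax2, paired-box factors of the boundary, differed by a ratio of 7.11 ± 0.321 per kb, with Pax5 at 86.0, 108 and 98.4 CPM and Pax2 at 7.11, 9.16 and 8.90 CPM.

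Boundary genes moved together between the libraries. Of the 17, 15 were lowest in replicate 1, where 29.9% of all genes with a mean of at least 1 CPM were, and 12 were highest in replicate 2, beside 23.3% of all such genes. Their summed level was 515, 621 and 598 CPM. The summed midbrain genes, for comparison, were at 239, 232 and 281 CPM, highest in replicate 3, and the summed rhombomere regulators were even at 1678, 1683 and 1686 CPM.

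Midbrain genes were detected beside them. Otx2, a homeobox gene of the forebrain and midbrain that stops at the boundary and is used again by choroid plexus, was at 70.5, 70.0 and 80.4 CPM (14:48657677-48673819, minus strand). Gbx2, which meets it from the hindbrain side, was at 11.2, 14.6 and 13.3 CPM (1:89927956-89931179, minus strand), and 43.5% of its exon lies opposite an antisense gene. Per kb, Otx2 was 2.95 ± 0.414 times as high as Gbx2, and higher in each library. Of 9 midbrain genes 8 were expressed, among them Tal2 (36.0, 33.5 and 43.6 CPM) and Dmbx1 (31.6, 31.0 and 42.6 CPM), which have their main early expression in the midbrain. Otx1, a relative of Otx2 with a role in forebrain and midbrain, was at 4.36 ± 0.701 CPM per kb. Lmx1b, Pou4f1 and Gata2 are also used by hindbrain cells.

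Of 16 forebrain genes 6 were expressed (37.5%, beside 57.9% of protein-coding genes), and the 2 highest per kb were Dlx2 (4.51 ± 0.454) and Dlx1 (1.5 ± 0.0401), which cranial neural crest also expresses. The lowest per kb included Six3, at 0.323, 0.249 and 0.260 CPM, Rax, with 3 counts, and Vax1, with 2 counts in all, which act in the eye field and ventral forebrain. The labelled tissue was therefore met by Hox genes of groups 1 to 3 and boundary genes, with midbrain genes at comparable levels. Rax, Vax1 and Hox genes of the trunk were at or near 0. Group 4 Hox genes, whose rostral limit lies inside the caudal hindbrain, held 31 counts, beside 5729 for groups 1 to 3. How much midbrain or caudal hindbrain tissue the dissections held was not tested.

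**Figure D2:**
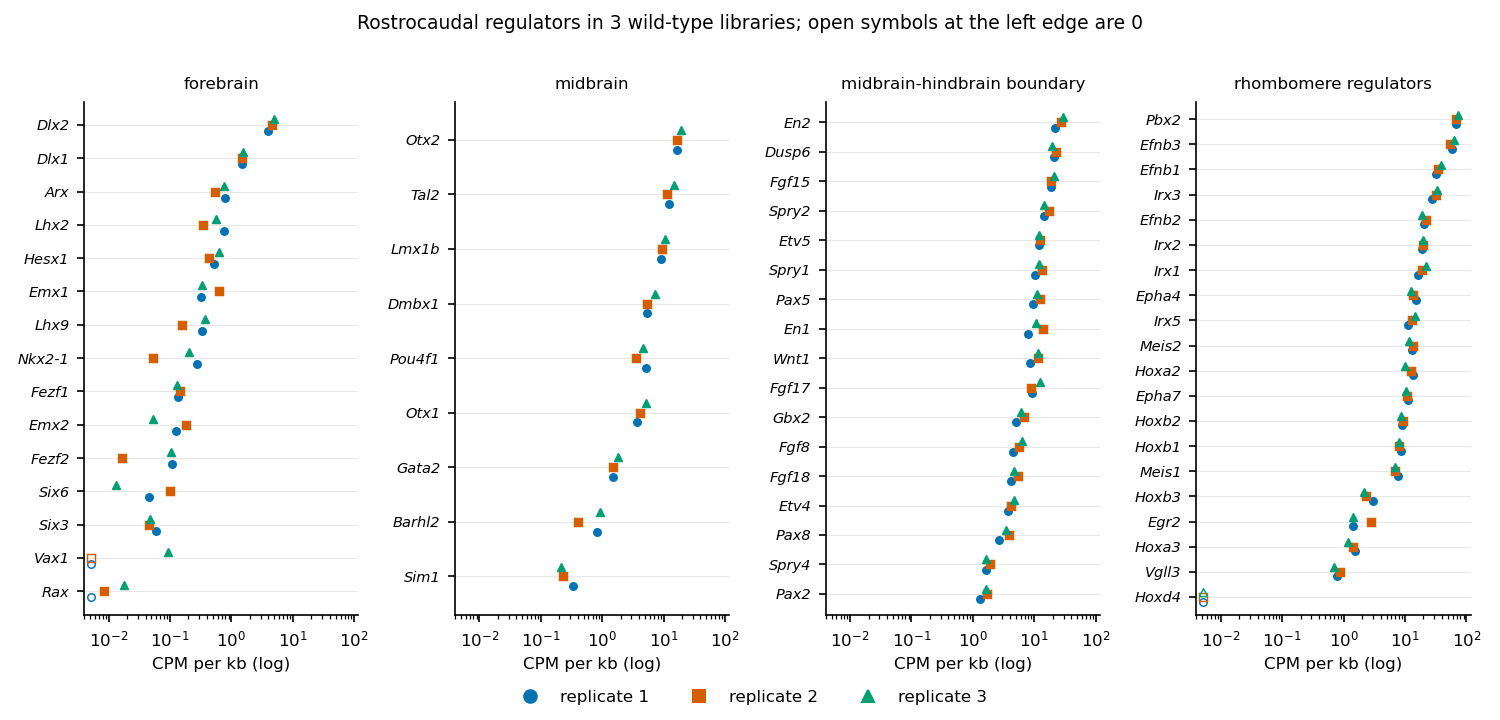
Level (CPM per kb, log axis) of genes of the forebrain, midbrain, midbrain-hindbrain boundary and rhombomeres in each library, with symbols for replicates 1, 2 and 3. Forebrain genes lie mostly below 1 CPM per kb, while every boundary gene lies above 1.

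Within the hindbrain, 22 of 24 regulators of rhombomere identity were expressed (91.7%). The Hox cofactors and boundary signals given here were higher per kb than Egr2, a marker of single segments. Pbx2, which binds DNA together with Hox proteins, stood at 69.1 ± 3.35 CPM per kb, and Meis2 at 12.7 ± 1.07. The ephrins Efnb3 (57.8 ± 4.60), Efnb1 (34.9 ± 3.65) and Efnb2 (20.4 ± 1.74) and the Eph receptors Epha4 (13.8 ± 1.44) and Epha7 (10.8 ± 0.504) belong to families that keep the cells of neighbouring rhombomeres apart. The Iroquois factor Irx3 was at 76.4, 89.3 and 92.3 CPM.

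Egr2, the zinc finger factor of rhombomeres 3 and 5, was lower, at 4.8, 9.51 and 4.89 CPM (10:67535475-67542188), or 1.88 ± 0.793 CPM per kb, and replicate 2 stood well above the other 2. This is a level over the whole tissue and does not give the level in the cells of 1 segment.

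Genes that handle retinoic acid were widely expressed, with 16 of 18 listed. Crabp1, which binds retinoic acid in the cytoplasm and is strong in hindbrain and migrating neural crest, was at 883, 987 and 961 CPM and ranked 73rd in the table. Its relative Crabp2 was at 512, 559 and 536 CPM, and the ratio of the pair per kb was 2.90 ± 0.0576. Enzymes that destroy retinoic acid were well expressed: Cyp26b1 at 171, 172 and 170 CPM and Cyp26c1 at 48.2, 58.8 and 53.7 CPM, with Cyp26a1 at 15.4, 12.6 and 14 CPM. Per kb Cyp26b1 stood 4.55 ± 0.469 times as high as Cyp26a1.

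Enzymes that make it were near the minimum. Aldh1a2, which makes the retinoic acid of the adjoining somites and not of the hindbrain itself, was at 0.0923, 0.448 and 0.937 CPM, and Aldh1a1 at 2.59, 1.64 and 1.56 CPM. Aldh1a3 was at 1.48, 6.82 and 0.468 CPM, another gene that was high in replicate 2. The step before it was present through Rdh10, which turns retinol into retinal (19.3 ± 1.61 CPM). Among the nuclear receptors, Rxra (20.8 ± 0.446 CPM per kb) and Rxrb (20.2 ± 2.44) overlapped, Rara (7.12 ± 0.715) and Rarg (6.74 ± 0.754) were lower, and Rarb (1.49 ± 0.122) and Rxrg (1.47 ± 0.123) were the lowest. Rarb is itself a retinoic acid target of the caudal hindbrain, and 38.4% of its exon lies opposite an antisense gene.

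Across the dorsoventral axis, both poles and the bands between them were represented. Of the 13 roof plate genes 12 were expressed, with a median of 25.0 CPM. Msx1, a homeobox factor downstream of BMP, was the highest per kb (28.5 ± 2.88) and stood 3.40 ± 0.205 times as high as Msx2. Wnt1 and Wnt3a, the dorsal midline WNTs, overlapped, with a ratio of 1.07 ± 0.183. Lmx1a, which specifies roof plate, was at 24.5, 21.1 and 22.5 CPM (1:167689237-167848741), and Lmx1b at 43.9, 46.5 and 51.9 CPM. Gdf7, a BMP-family ligand specific to roof plate cells, was low, at 2.91, 2.79 and 4.16 CPM. Ttr, the thyroxine carrier that choroid plexus makes in large amounts, had 14 counts in all (0.231, 0.448 and 0 CPM).

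Among 18 genes of dorsal progenitors 16 were expressed. The Zic factors spanned a wide range, from Zic1 (147, 138 and 143 CPM) and Zic2 (54.9, 60.1 and 62.0 CPM) to Zic4 (17.5, 12.9 and 18.1 CPM). Pax3 and Pax7, which both mark the dorsal part, stood at 9.65 ± 0.799 and 5.79 ± 0.601 CPM per kb without overlap. Of the proneural factors, Neurog1 stood at 15.4 ± 2.21 CPM per kb, above Neurog2 (4.88 ± 0.305) and Atoh1 (3.73 ± 1.22), and Neurog2 and Atoh1 overlapped. Atoh1, the factor of the rhombic lip that later gives rise to granule cells and precerebellar neurons, was at 9.83, 4.98 and 8.95 CPM (6:64729125-64731245), lowest in replicate 2. Olig3, of the dorsal-most domains, was at 33.4, 30.1 and 32.9 CPM. Ptf1a (0.508, 0.249 and 0.520 CPM) and Gsx2 (0.323, 0.0498 and 0.312 CPM), which specify dorsal inhibitory and other interneurons somewhat later, were under the minimum.

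Of 12 ventral progenitor genes 10 were expressed. Dbx1, at the midpoint of the tube, was at 32.6, 24.4 and 33.9 CPM. Nkx6-2 (13.8 ± 3.26 CPM per kb), Nkx2-9 (13.4 ± 2.10) and Nkx6-1 (10.4 ± 1.42), which respond to hedgehog signal, overlapped in the order of levels. Nkx2-2, nearest to the floor plate, was lower (2.27 ± 0.206). Olig2, of somatic motor neuron progenitors, was at 2.26, 1.34 and 2.03 CPM, and Olig1 had 13 counts.

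All 11 floor plate genes were expressed. The order per kb began with Ntn1 (28.6 ± 3.58), Sulf1 (18.9 ± 1.27) and Slit1 (16.8 ± 3.10). Ntn1, which attracts commissural axons, was at 169, 164 and 205 CPM, and Slit1, which repels them after crossing, at 105, 78.9 and 114 CPM. Shh itself was at 28.2, 25.5 and 30.3 CPM (5:28456815-28467256, minus strand), and Foxa2, the factor that induces it, at 16.3, 17.3 and 18.4 CPM (2:148042877-148046969, minus strand). The hedgehog pathway was complete, with all 11 listed members expressed and a median of 107 CPM. Smo, the signal transducer (45.0 ± 2.91 CPM per kb), and the co-receptors Gas1 (36.2 ± 0.764) and Cdon (27.8 ± 0.718) were separate from one another and above the receptor Ptch1 (15.3 ± 0.942). The target Gli1 was at 62.5, 60.3 and 68.3 CPM, and the ratio of Shh to Gli1 per kb was 0.771 ± 0.0265. Hhip, a target that sequesters the ligand, was the lowest member (11.1, 10.4 and 6.82 CPM).

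**Figure D3:**
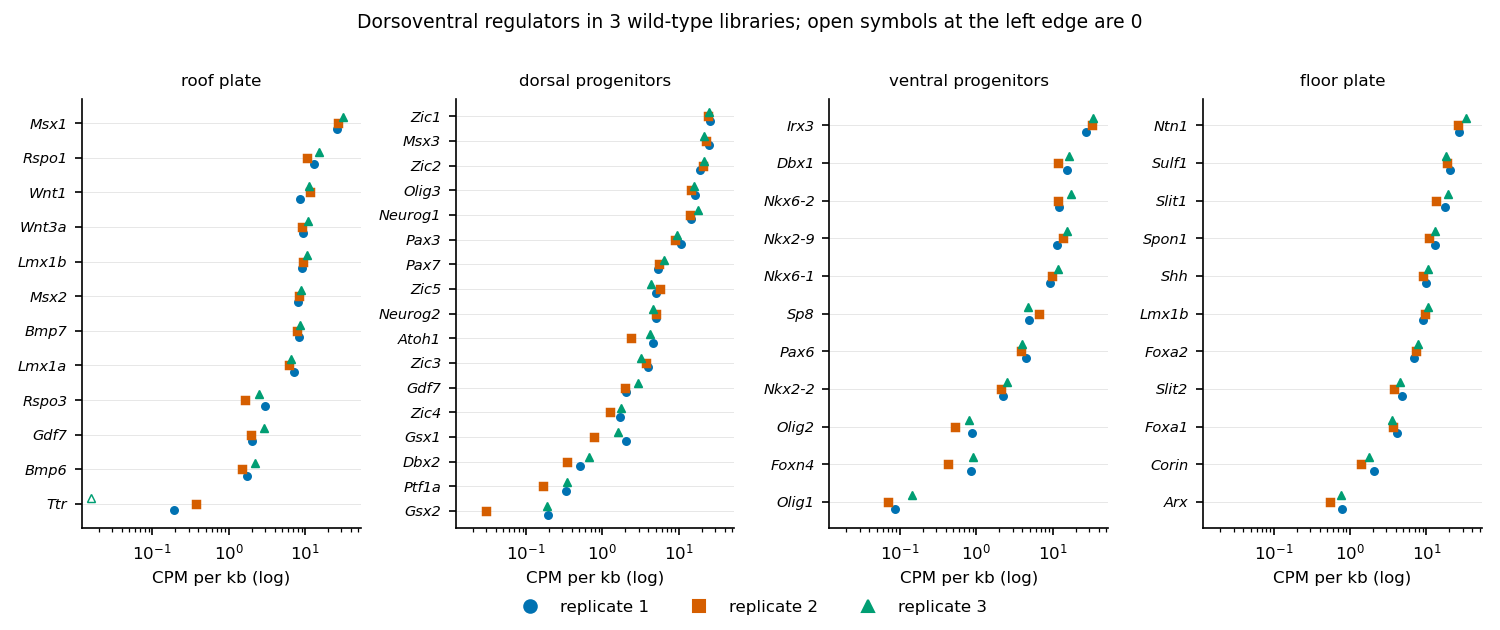
Level (CPM per kb, log axis) of genes of the roof plate, dorsal progenitors, ventral progenitors and floor plate in each library, with symbols for replicates 1, 2 and 3. The highest gene of each of the 4 panels (Msx1, Zic1, Irx3 and Ntn1) lies above 20 CPM per kb. Irx3 also stands in the rhombomere list, and the next gene of the ventral panel, Dbx1, has a mean of 14.5 CPM per kb. Ttr, Ptf1a, Gsx2 and Olig1 lie at the low end of their panels.

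All 24 neural progenitor genes were expressed, with a median of 128 CPM. The intermediate filament genes Vim (871, 701 and 958 CPM) and Nes (722, 636 and 756 CPM) headed the order, at 178 ± 27.7 and 110 ± 9.66 CPM per kb. Sox2, the factor that keeps neural cells in a progenitor state, was at 127, 143 and 125 CPM (3:34650405-34652461), and its partners Sox1 and Sox3 at 12.2 ± 0.947 and 21.8 ± 6.14 CPM per kb beside 63.9 ± 4.73 for Sox2. Pax6 was the lowest by mean (4.12 ± 0.360) and overlapped Pou3f1 (4.59 ± 1.28).

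Of 29 cell cycle genes 28 were expressed. Mki67, made only in cycling cells, was at 1125, 967 and 982 CPM, and Top2a, of S and G2 phase, at 1047, 958 and 963 CPM. Cdk4 led per kb (308 ± 17.5), and the D cyclins Ccnd1 and Ccnd2 stood at 121 ± 2.18 and 98.1 ± 4.01, with a ratio of 1.24 ± 0.0290. The inhibitors were spread widely: Cdkn1c at 82.9 ± 12.4 CPM per kb, Cdkn1b at 11.8 ± 1.3, Cdkn1a at 2.91 ± 0.284, and Cdkn2a with 3 counts in all. Pluripotency genes were nearly absent, with 2 of 10 expressed (20%, beside 57.9% of protein-coding genes). Sall4, which is used widely in the embryo, was at 102, 113 and 113 CPM, whereas Pou5f1 had 3 counts, Nanog 8 and Dppa3 0.

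Genes of the heterochronic pathway, which sets developmental timing, belonged to the upper part of the progenitor list. Hmga2, a chromatin protein of early stem cells (10:120361275-120476469, minus strand), was at 545, 580 and 434 CPM and ranked 234th in the table. Lin28a (4:134003330-134018841, minus strand) was at 353, 499 and 371 CPM, and Lin28b (10:45376620-45486395, minus strand) at 211, 225 and 170 CPM. Both encode RNA-binding proteins that block the maturation of let-7 microRNAs. Per kb Lin28a was 4.59 ± 0.687 times as high as Lin28b.

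The mature let-7 microRNA represses all 3 of these messengers in other systems, and its sequence and the places in their 3′ UTRs that match it are given for that reason. This set was chosen after the levels had been seen. Mature let-7c-5p lies inside the host gene Mir99ahg (16:77599672-77599693, plus strand) and is shown from RefSeq (GRCm38.p6), with its seed, bases 2 to 8, in capitals:
let-7c-5p: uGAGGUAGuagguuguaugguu
The seed pairs with CTACCTC in a messenger. Hmga2 holds 4 such matches in the 3014-nt 3′ UTR of its transcript, Lin28a 2 in 2775 nt and Lin28b 4 in 4445 nt. Each is given as DNA on the messenger strand with the match in capitals:
Hmga2 match 1: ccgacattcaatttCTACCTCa
Hmga2 match 2: cccactcctcaataCTACCTCt
Hmga2 match 3: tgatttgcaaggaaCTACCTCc
Hmga2 match 4: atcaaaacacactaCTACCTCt
Lin28a match 1: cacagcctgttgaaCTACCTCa
Lin28a match 2: agatcgccacaaacCTACCTCa
Lin28b match 1: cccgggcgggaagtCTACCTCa
Lin28b match 2: atacttgttagtaaCTACCTCt
Lin28b match 3: tttacagcacatggCTACCTCc
Lin28b match 4: aatgatggcaccgaCTACCTCt
At least 1 match was present in 10.9% of 12250 expressed protein-coding genes with a 3′ UTR, and at least 2 in 1.39%. Among 2415 such genes whose 3′ UTR is at least as long as that of Lin28a, the shares were 24.6% and 4.89%. The progenitor and cell cycle genes Ccnd1, Ccnd2, Sox2, Msi1, Nes and Vim held 0 matches. A match of 7 letters is a description of sequence, and binding was not measured.

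The libraries do not measure mature microRNA, and only the host RNA can be given. Mir99ahg was at 5.91, 2.99 and 4.32 CPM, and Mir9-3hg, host of the neural microRNA miR-9, at 2.12, 1.10 and 0.885 CPM. Mir17hg, host of the miR-17-92 cluster that promotes proliferation, was at 129, 144 and 94.3 CPM (14:115042879-115046727). The table of mature sequences places 11 of them inside this gene. The 6 shown are the arms usually named for the cluster, chosen to show which share a seed (capitals, bases 2 to 8):
miR-17-5p: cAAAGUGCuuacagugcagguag
miR-20a-5p: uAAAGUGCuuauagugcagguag
miR-18a-5p: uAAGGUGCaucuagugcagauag
miR-19a-3p: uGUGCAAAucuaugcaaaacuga
miR-19b-3p: uGUGCAAAuccaugcaaaacuga
miR-92a-3p: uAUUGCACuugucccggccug
The seed AAAGUGC is shared by miR-17-5p and miR-20a-5p, and GUGCAAA by miR-19a-3p and miR-19b-3p, while miR-18a-5p and miR-92a-3p each have their own. Mir124-2hg and Mir124a-1hg, named for the neuronal miR-124, were at 66.5, 61.9 and 52.1 CPM and at 16.0, 7.12 and 13 CPM.

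Newborn neurons were present in all libraries, and their genes were lowest in replicate 2. All 25 neuronal genes were expressed, with a median of 42.9 CPM. Tubb3, the neuronal beta-tubulin, was at 276, 168 and 298 CPM (8:123411424-123422015), and the neurofilament gene Nefm at 174, 99.1 and 160 CPM. Dcx, a microtubule protein of migrating neurons, was at 63.7, 30.4 and 43.0 CPM, and Stmn2 at 59.7, 33.5 and 58.4 CPM. Rbfox3, the antigen of more mature neurons known as NeuN, was the lowest by mean per kb (1.31 ± 0.185). In 22 of the 25 genes replicate 2 was lowest, beside 36.7% of all genes with a mean of at least 1 CPM. The summed level was 1503, 963 and 1371 CPM, and the medians of log2 to the mean were 0.23, -0.37 and 0.14. The ratio of Sox2 to Tubb3 per kb was 0.416, 0.772 and 0.381, whereas the summed progenitor genes were at 4816, 4670 and 4870 CPM. Whether the age of the embryos within the day, the dissection or another difference went with this was not tested.

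Of 18 genes of cranial motor neurons 13 were expressed (72.2%, beside 57.9% of protein-coding genes). Isl1, expressed as motor neurons are born, was at 36.2, 20.7 and 24.7 CPM. Genes of the transmitter phenotype were at the low end: Slc5a7 (choline uptake) at 1.85, 1.05 and 1.04 CPM, Slc18a3 (vesicular acetylcholine transporter) at 1.11, 0.249 and 0.624 CPM, and Chat (choline acetyltransferase) with 6 counts. Mnx1, of spinal and somatic motor neurons, had 9 counts. Among 22 interneuron genes 16 were expressed (72.7%). Tal1 (5.23 ± 1.06 CPM per kb), Pou4f1 (4.42 ± 0.768) and Pax8 (3.32 ± 0.604) were neighbours in the order that overlapped, and Tal1 is also a gene of blood cells. Lbx1 and Evx2 had 6 counts each.

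Of 23 synaptic genes 11 were expressed (47.8%, near the 57.9% of all protein-coding genes), with a median of 1.49 CPM. Vamp2 and Dlg4, which many cell types use, were at 50.9 ± 2.70 and 51.7 ± 2.61 CPM. Per kb, the order of the list began with Vamp2 (13.4), Stx1a (5.42), Dlg4 (3.90) and Syp (3.13). The glutamate transporter Slc17a6 was at 2.08, 0.797 and 1.82 CPM, the enzymes of GABA synthesis Gad1 and Gad2 at 0.377 ± 0.0184 and 0.434 ± 0.219 CPM, and the glycine transporter Slc6a5 had 2 counts. The serotonin transporter Slc6a4 was at 0.551 ± 0.206 CPM, and Tph2, which makes serotonin, had 1 count.

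All 23 listed genes of the NOTCH pathway, by which a newborn neuron holds its neighbours in the progenitor state, were expressed. The target Hes5 was at 58.2, 50.8 and 83.5 CPM. Among receptors Notch3 stood highest per kb (28.8 ± 2.95), Notch2 (13 ± 0.374) and Notch1 (12.8 ± 1.68) overlapped, and Notch4, an endothelial receptor, was the lowest by mean (1.97 ± 0.296). Of the ligands, Jag1 (22.0 ± 0.599) and Dll1 (20.2 ± 2.42) overlapped, and Dll1 was 2.35 ± 0.360 times as high as Dll3. Hes3, a repressor of the boundary and isthmus, was at 20.5, 29.2 and 31.6 CPM, lowest in replicate 1 like the boundary genes above.

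Genes of structures that the hindbrain forms later were examined to see which were already on. Of 17 genes of choroid plexus epithelium 9 were expressed (52.9%, near the 57.9% of all protein-coding genes), and the highest were genes that other embryonic tissue makes: Igf2 (876, 1006 and 835 CPM, with 62.8% of its exon shared with another gene of the same strand) and Otx2. The genes nearest to the differentiated epithelium were at or close to 0. Kcnj13 and Kcne2, its potassium channel subunits, had 0 counts, Kl 3 counts and Slc4a10 1 count. Folr1, the folate receptor of the plexus, was at 3.69, 3.79 and 5.05 CPM, Clic6 at 5.73, 6.72 and 7.34 CPM, and Sostdc1, a secreted inhibitor of BMP and WNT, at 12.5, 13.3 and 11 CPM.

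Of 17 genes of multiciliation 12 were expressed (70.6%, beside 57.9% of protein-coding genes). Gmnc, which starts the multiciliated fate (16:26913553-26991652, minus strand), was at 7.76, 5.03 and 3.75 CPM, and Mcidas, its downstream partner, had 25 counts (0.554, 0.249 and 0.416 CPM). Foxj1, which drives motile cilia and is also used by floor plate, was at 10.3, 7.72 and 11.3 CPM (11:116330704-116335399, minus strand). Rfx4 (21.5 ± 1.46 CPM per kb) and Rfx3 (7.14 ± 1.11), factors of a family that controls cilia genes, headed the order. The motor protein genes Dnah5 and Dnah11 and the central-pair gene Hydin all lay between 0.996 and 3.33 CPM in every library.

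In the cerebellar list 7 of 15 genes were expressed (46.7%, which is also near the 57.9% of protein-coding genes), led by Zic1 and the synaptic organiser Cbln1 (13.7, 12.9 and 15.2 CPM). Skor2, a marker of Purkinje cells, and Gabra6, of mature granule cells, had 0 counts. Glial genes gave 11 of 16 (68.8%, beside the same 57.9%). Of the leading ones, Sox10 (62.4, 61.7 and 62.8 CPM) and Pdgfra are also genes of neural crest or mesenchyme, and the radial glial transporter Slc1a3 was at 30.9, 26.2 and 24.4 CPM. The defining genes of mature glia were at the floor, with 9 counts of Gfap and 0 of S100b and Mog.

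Among 23 WNT ligands and R-spondins 16 were expressed (69.6%, beside 57.9% of protein-coding genes) with a median of 7.34 CPM. Of 26 receptors and response genes 25 were expressed (96.2%) with a median of 54.5 CPM, and the difference between these lists was not tested. Rspo1 (13 ± 2.49 CPM per kb), Wnt1 (10.5 ± 1.69) and Wnt3a (9.82 ± 1.10) overlapped at the top of the ligands. Wnt5a, a ligand of the non-canonical branch, was even between the libraries, at 43.4, 43.8 and 43.5 CPM. Ctnnb1, which encodes beta-catenin, was at 1377, 1349 and 1348 CPM, and the secreted inhibitors Sfrp1 (90.2 ± 6.33 CPM per kb) and Sfrp2 (81.8 ± 0.321) were separate from the highest receptor, Fzd7 (38.2 ± 3.86). The canonical target Axin2 was at 115, 120 and 129 CPM. Lgr6, a receptor of R-spondins, was under the minimum (0.739, 0.349 and 0.572 CPM).

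For BMP signalling, 15 of 17 ligands and antagonists and all 17 receptors and response genes were expressed, with medians of 6.72 and 41.2 CPM. Bmp7 stood 1.67 ± 0.129 times as high per kb as Bmp4, and Bmp2 was lower (0.816 ± 0.380 CPM per kb). Twsg1 (22.8 CPM per kb), the highest of the ligands and antagonists, and Fst (10.7) stood above the antagonist Nog (2.76 ± 0.660). Nog was in turn above Chrd (0.784 ± 0.124), another antagonist. The direct targets Id3 (150 ± 20.2 CPM per kb), Id1 (79.5 ± 11.1) and Id2 (70.9 ± 6.95) led the list, and Id4 was lower (3.6 ± 0.531). Of the receptors, Bmpr1a (29.0 ± 3.41) was above Bmpr2 (3.37 ± 0.637) and Bmpr1b (3.06 ± 0.392). Smad5 (25.7 ± 1.97) was above Smad1 (6.39 ± 0.351) and Smad9 (0.587 ± 0.0986), the other 2 mediators of the pathway.

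In the FGF list 14 of 21 genes were expressed (66.7%, beside 57.9% of protein-coding genes). Fgfr3 (20.4 ± 3.12 CPM per kb) and Fgfr1 (19.8 ± 1.33) overlapped, Fgfr2 was lower (13.9 ± 0.735), and Fgfr4 was under the minimum (0.574 ± 0.285 CPM). Fgf3, a ligand of rhombomere boundaries and of the ear region, was at 5.63, 6.23 and 4.68 CPM, and Fgf10 at 8.36, 7.72 and 5.57 CPM. Fgf5, Fgf7 and Fgf16 had 6, 18 and 13 counts.

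Among transcription factor families, 16 of 19 SOX genes were expressed, in an order from Sox2 to Sox11 (45.6 ± 4.30 CPM per kb) and a group of 3 that overlapped, Sox4 (35.9 ± 3.95), Sox12 (35.3 ± 2.73) and Sox13 (34.8 ± 1.84). Sox11, a factor of immature neurons, was at 411, 385 and 341 CPM. Sox14 (8 counts), Sox15 (10) and Sox30 (12) were under the minimum. Of 9 PAX genes 8 were expressed, and Pax4, a gene of pancreatic islets, had 0 counts. Pax1 and Pax9, genes of sclerotome and pharyngeal endoderm, were at 2.92 ± 0.328 and 6.81 ± 1.12 CPM.

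Imprinted genes, which are expressed from 1 parental copy and many of which control growth, gave 20 of 20 expressed, with a median of 163 CPM. H19, a non-coding RNA, was at 1580, 1672 and 1606 CPM, and Igf2, its neighbour on chromosome 7, is given above. Mest was at 1934, 1993 and 1896 CPM, and Grb10, an adaptor that restrains insulin signalling, at 1854, 1792 and 1723 CPM. Per kb, Mest was 3.12 ± 0.221 times as high as Igf2. Most of the Igf2 exon is shared with another gene of the same strand. The ratio depends on how such reads were counted, which the sources used here do not give. Mirg (1.52 ± 0.0823 CPM per kb) and Zim1 (2.14 ± 0.426) were the lowest.

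Other cell types were present in every library, and their markers bear on the levels above. Neural crest, the migratory cells that leave the dorsal hindbrain, was complete, with 19 of 19 genes expressed. Besides Sox10 and Crabp1, Twist1 was at 41.1, 46.7 and 43.2 CPM, Ets1 at 75.7, 84.6 and 72.3 CPM, Tfap2b at 61.0, 58.8 and 50.8 CPM, and Foxd3 at 5.73, 5.53 and 4.58 CPM. Cranial mesenchyme gave 22 of 25. Col3a1 was at 454, 477 and 466 CPM, and Tcf21, of pharyngeal and visceral mesenchyme, was under the minimum with 36 counts. Endothelium gave 18 of 19, with Kdr, the VEGF receptor, at 82.6, 80.8 and 79.2 CPM and Cdh5 at 57.1, 67.7 and 59.4 CPM. Etv2, which acts as endothelial cells first arise, was at 0.693, 1.10 and 0.364 CPM.

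Blood was carried by primitive erythroid cells. All 16 erythroid genes were expressed, led by the embryonic globins Hbb-y (2438, 1526 and 3063 CPM, 7:103851749-103853216), Hbb-bh1 (1869, 1276 and 2351 CPM) and Hba-x (1271, 954 and 1887 CPM). Hbb-y was 1.23 ± 0.0601 times as high per kb as Hbb-bh1. Among the adult forms Hba-a1 was at 169, 117 and 241 CPM and Hbb-bs at 22.9, 8.62 and 16.5 CPM, and Hba-x was 6.79 ± 0.291 times as high per kb as Hba-a1. Hba-a1 and Hba-a2 are nearly identical, as are Hbb-bs and Hbb-bt, and the split of their reads is uncertain. In all 16 genes replicate 2 was lowest, beside 36.7% of all genes with a mean of at least 1 CPM. In 13 of the 16 replicate 3 was highest, beside 43.8% of all genes at that mean. The sums over the 16 genes were 6141, 4131 and 8027 CPM. The 11 globin genes of the table, a different set, took 0.585%, 0.393% and 0.766% of the counts.

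Epithelial and other rare markers varied differently. Of 16 surface ectoderm genes 14 were expressed. Of the 14 with a mean of at least 1 CPM, 12 were highest in replicate 2, beside 23.3% of all genes at that mean. The simple keratins Krt18 (36.8, 60.1 and 36.1 CPM) and Krt8 (35.6, 56.2 and 37.5 CPM) were among these, and the list summed to 289, 385 and 280 CPM. Krt5 and Krt14, of stratified epidermis, had 24 and 25 counts. Otic and placodal genes gave 14 of the 17 that were in the table, with Eya1 at 51.9, 51.0 and 42.8 CPM, Oc90, made by the otic vesicle, at 7.57, 4.08 and 6.24 CPM, and Hmx3 at 1.39, 1.54 and 2.29 CPM.

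Macrophage genes were scarce, with 2 of 15 expressed (13.3%, beside 57.9% of protein-coding genes). These were Csf1r (3.32, 2.04 and 2.55 CPM) and Cx3cr1 (1.89, 1.05 and 1.67 CPM). The sum over all 15 listed genes was 14.4, 8.12 and 11.1 CPM, and the microglial gene P2ry12 had 12 counts and Trem2 1. Heart and muscle gave 6 of 20 (30%, beside the same 57.9%). Per kb this list was led by Acta2 and Actc1, at 24.2 ± 6.20 and 7.03 ± 0.330 CPM. The cardiac factors Nkx2-5 and Tbx5 had 2 counts and 1 count. Hand1, of heart, pharyngeal arches and extraembryonic mesoderm, was at 0.185, 5.33 and 0.0520 CPM, and 107 of its 112 counts were in replicate 2. Endoderm and notochord gave 6 of 16 (37.5%, beside the same 57.9%), led by Cldn4 (11.9, 14.7 and 12.3 CPM). Noto, the notochord factor, and Alb had 1 count each. Replicate 2 was thus the library with the most Xist, Postn, Hand1, Aldh1a3 and simple keratin RNA and with the least neuronal and erythroid RNA. The part of these markers in the levels of neural genes was not tested.

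**Figure D4:**
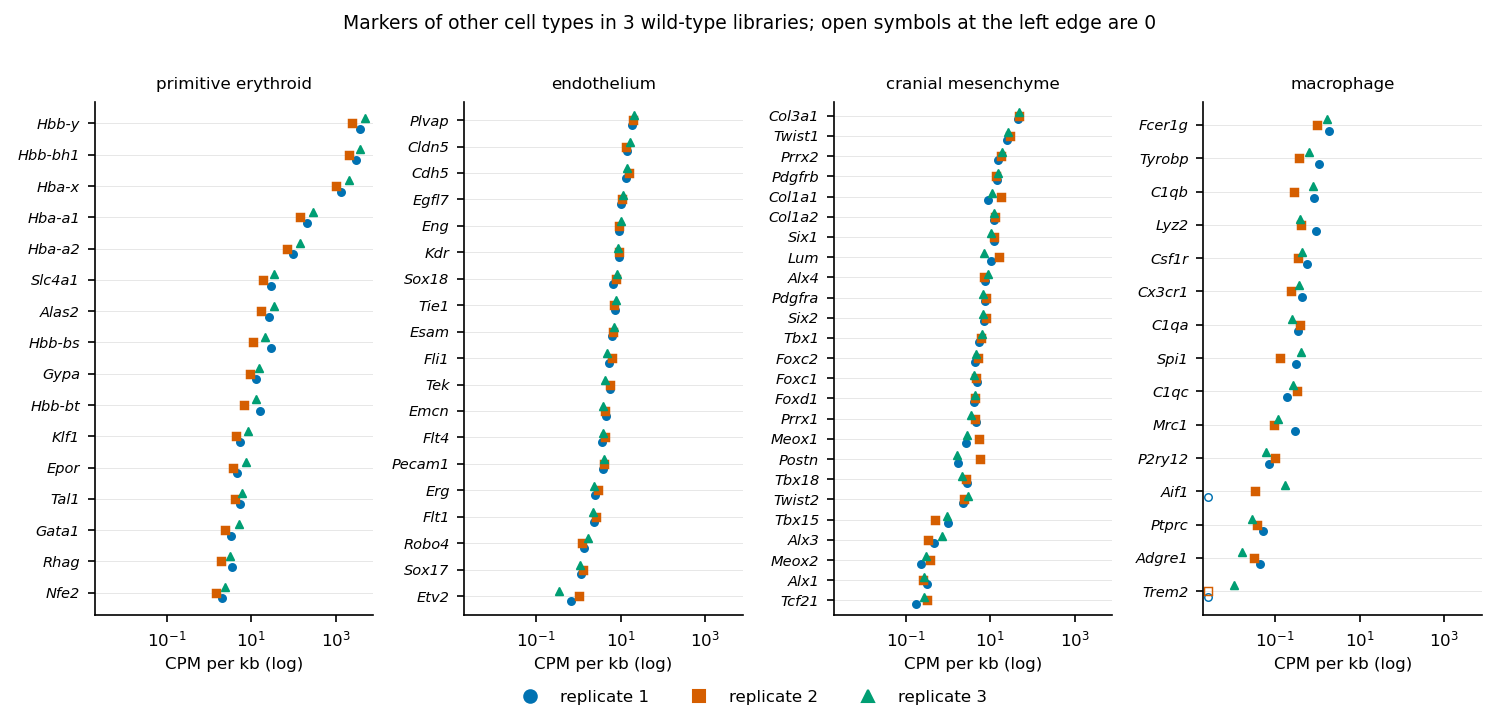
Level (CPM per kb, log axis) of markers of primitive erythroid cells, endothelium, cranial mesenchyme and macrophages in each library, with symbols for replicates 1, 2 and 3. In the erythroid panel the square of replicate 2 is leftmost for all 16 genes. Replicate 2 was lowest for 36.7% of all genes with a mean of at least 1 CPM. Macrophage genes lie mostly below 1 CPM per kb.

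**Figure D5:**
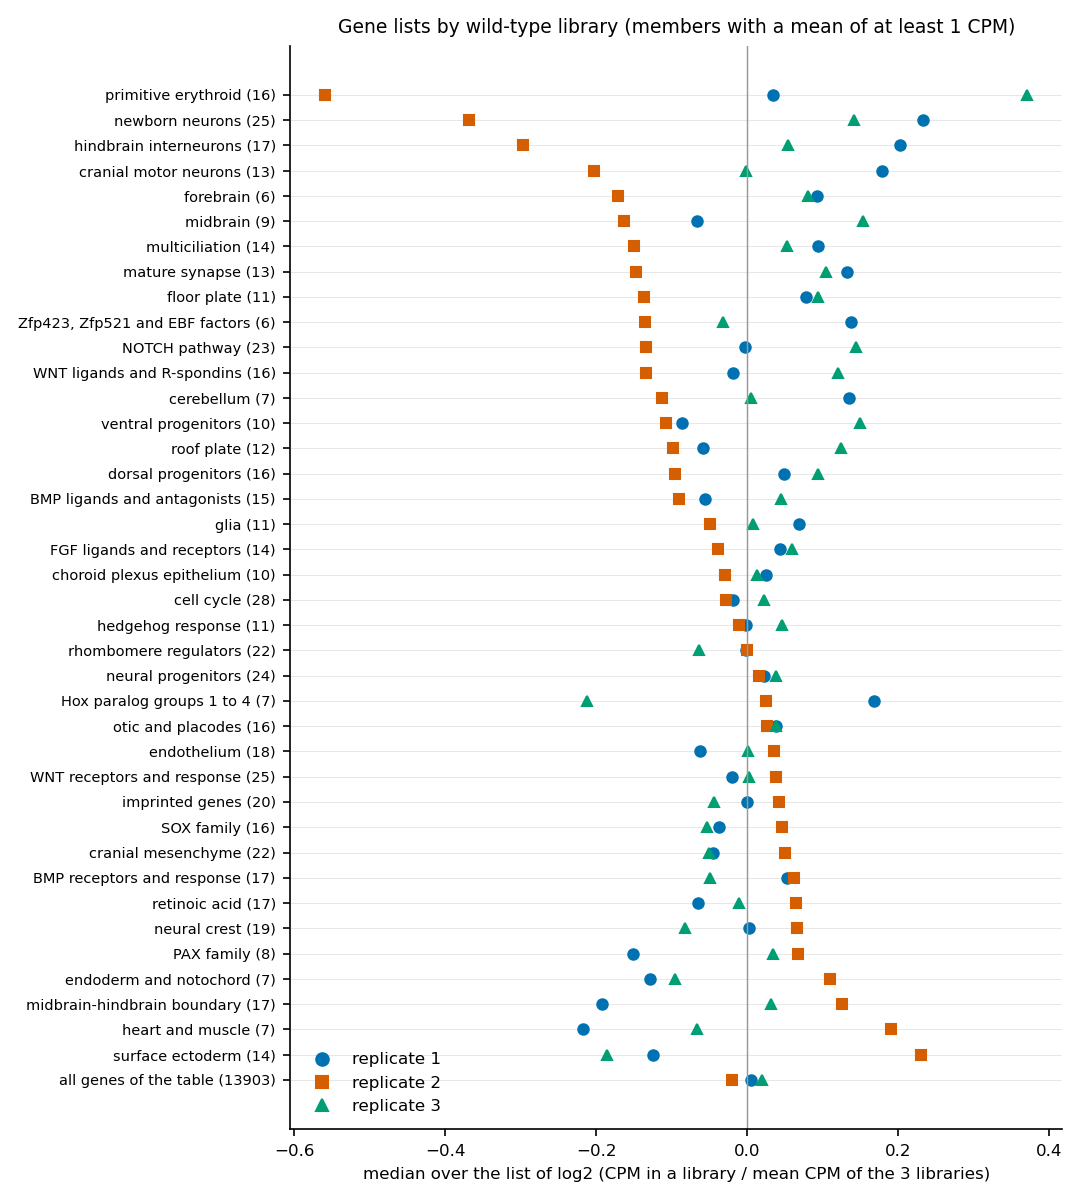
For each list with at least 6 members at a mean of 1 CPM or more (number in brackets), the median over members of log2 of a library's CPM over the mean of the 3 libraries. Replicate 2 is lowest for primitive erythroid genes (-0.56) and newborn neurons (-0.37) and highest for surface ectoderm (0.23), beside -0.02 over all 13903 such genes.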

How the data were processed

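Hindbrain RNA was purified on spin columns, and each stranded TruSeq library was made from 500 ng of it and sequenced single-end for 75 nt (NextSeq 500), per the labels' protocols. The deposited table gives raw counts, whole numbers of reads per gene symbol without scaling. The submitters' processing notes name STAR 2.5.3a, featureCounts and limma, with mm10 (GRCm38) as the genome. Which annotation release, strand setting and rule for reads matching several genes were used is not given in the sources used here.

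From the 3 wild-type columns, counts were divided by the library total (CPM) with Python 3.11.15 and pandas 2.3.3. Positions and merged exon lengths were taken from the M21 release of GENCODE (GRCm38), where 46384 symbols of the table had a single match. TMM factors and the common dispersion of an intercept-only fit were computed with edgeR 4.0.16, and the code was tested on simulated counts. With 1 group of 3 libraries no test was made, and means are given ± SD over the 3. Floors and chi-square values cover counting error only.

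The text names the 20 genes with the highest mean CPM, the 10 with the largest SD of log2 CPM at a mean of at least 10 CPM (pseudocount 0.1), Zfp423, the 4 highest and 4 lowest members of a list per kb and other members by their role. Some genes that the rule allows are left out. A few members are included in the counts of their lists but are not reported here by name or drawn. The 45 lists held 662 symbols, of which 661 were in the table, and 85 stood in more than 1 list. Members and lists were chosen with earlier results of these data known. Mature microRNAs were placed inside host genes by coordinates. The 3′ UTR matches were searched on the messenger strand of 1 transcript per gene. A planned comparison of promoter sequence with level was void, because a promoter was available for 77.5% of protein-coding genes, under the 80% required.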

Additional observations from a re-analysis of the deposited data

How the results depend on the processing

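No paired analysis was possible because 1 group was described and no comparison was tested. The number of expressed genes lay between 12349 (minimum of 2 CPM) and 14609 (0.5 CPM), with 13903 for a mean of at least 1 CPM, 13499 with TMM factors and 13527 without mitochondrial and globin genes in the total. With the minimum at 2 CPM, list counts changed to 1 for the caudal tail bud, 1 for pluripotency, 7 for glia and 1 for macrophages. Macrophage genes numbered 6 at 0.5 CPM and 4 by a mean of at least 1 CPM. All other list counts stayed within 1.5 times the one reported, under these settings, other scaling and each replicate left out. The dispersion value was 0.0729 to 0.107 when 1 replicate was left out, with the lowest value without replicate 3, and the cause was not tested. With the longest transcript as length, 239 in place of 247 of 716 neighbouring pairs were separate, and the leading gene became Fgf15 for the boundary, Sulf1 for floor plate, Isl1 for motor neurons, Fgfr1 for FGF genes, Pax3 for PAX genes, Mest for imprinted genes and Egfl7 for endothelium. Of the gene levels checked, 10 of 505 moved by more than their SD when mitochondrial and globin genes were left out of the total. The planned comparison of promoter sequence with level was not run. Levels under about 0.15 CPM rest on 3 counts or fewer.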

Other observations

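Some lists differed between the 3 wild-type libraries in different directions, which a reader using them as a reference group may want to examine gene by gene. Of the 25 newborn neuron genes 22, and all 16 erythroid genes, were lowest in replicate 2 (36.7% of all genes with a mean of at least 1 CPM), the 7 Hox genes of groups 1 to 3 at that mean were lowest in replicate 3 (33.3%), and 15 of 17 boundary genes were lowest in replicate 1 (29.9%). Endothelial genes, in contrast, summed to 507, 539 and 526 CPM, and cell cycle genes to 9957, 9685 and 9988 CPM. These are values of 3 libraries, with no test and no cause assigned.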
